A study of Mus musculus with 2 samples.

Results

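The regions described here are stretches of open chromatin that lie at the meeting point of neighbouring protein-coding genes and that were called in both the control and the Brd9 knockout library. Both autosomal peak lists were merged wherever peaks overlapped by at least 1 bp, which gave 28403 regions. Of these, 18023 held peaks of both lists and are called shared. A shared region was kept when it lay within 1 kb of an end of 2 or more protein-coding genes, which left 1704 regions. The regions were chosen by the presence of a called peak in both lists and by distance to gene ends, so that presence is not a result, and the levels and ratios below are descriptions without a test. The chosen regions had exactly 2 such genes in 1646 cases and 3 or more in 58.

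Chromatin accessibility was assayed by ATAC-seq: a transposase cuts open DNA and adds sequencing adapters. Cells came from the fetal liver of C57BL/6 mouse embryos at E14.5, the main site of blood formation at that age, and were sorted as lineage-negative and c-Kit-positive. The control library (replicate 1) was CD45.2(+) Brd9fl/fl, in which both Brd9 alleles carry recombination sites but no Cre is present. The knockout library (replicate 2) was CD45.2(+) Vav1-iCre Brd9fl/fl, in which Cre under Vav1 control acts in blood cells and their precursors. Each library was made from 150000 cells, with 1 library per genotype and no replicate of either. The labels do not say how many embryos went into a library. Every difference is therefore between 2 libraries, no p-value was computed, and the 95% intervals cover counting error only.

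A bidirectional promoter is a short stretch of DNA from which a pair of genes on opposite strands are transcribed away from each other. Such promoters are common in mammalian genomes, are usually rich in CpG dinucleotides and poor in TATA boxes, and often serve housekeeping genes of DNA repair, the mitochondria, protein synthesis and the core histones. BRD9 carries a bromodomain and belongs to the non-canonical BAF complex, a remodeller that moves nucleosomes with energy from ATP.

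Levels are given as summit reads, the number of extended reads that cover the highest point of a peak. They were recovered as whole numbers from the deposited fold and −log10 p, and a region took its highest summit in each list. The knockout library had 0.640 times the depth of the control, from the lowest background of each list. A scaled ratio is knockout over control summit reads divided by that depth, so 1 means equal at relative depth.

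Promoter sequences of 8 pairs are shown because the results turn on them. Brd9 is the gene targeted in the knockout, Gnl3 shares its promoter with the BAF subunit gene Pbrm1, and Trp53 and Brca1 are well-known bidirectional promoters. Mrpl46 and H2ac15 each face a gene of their own family, and Gfer and Stk16 belong to the lowest and the highest scaled ratios. The sequences are RefSeq's on GRCm38.p6, whose coordinates are those of mm10, and run 5′ to 3′ on the strand of the named gene from 250 bases before its start to 50 after, so that its own start is position 251. Capitals mark every match, on either strand, to any of the 10 motifs spelled out further on.
Brd9 (chr13:73937561-73937860, plus strand): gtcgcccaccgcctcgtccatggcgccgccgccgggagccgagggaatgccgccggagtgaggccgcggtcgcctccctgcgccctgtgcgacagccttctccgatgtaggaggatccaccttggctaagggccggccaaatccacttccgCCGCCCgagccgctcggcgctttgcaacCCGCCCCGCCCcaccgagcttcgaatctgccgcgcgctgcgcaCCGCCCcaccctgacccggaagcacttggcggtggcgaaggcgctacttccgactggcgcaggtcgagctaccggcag
Gnl3 (chr14:31019082-31019381, minus strand): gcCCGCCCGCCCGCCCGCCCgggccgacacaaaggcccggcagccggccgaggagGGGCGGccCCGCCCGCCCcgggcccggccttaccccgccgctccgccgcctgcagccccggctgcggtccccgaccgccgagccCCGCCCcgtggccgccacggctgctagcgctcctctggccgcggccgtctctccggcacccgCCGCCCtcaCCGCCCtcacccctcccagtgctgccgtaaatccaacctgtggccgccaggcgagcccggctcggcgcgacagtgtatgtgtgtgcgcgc
Trp53 (chr11:69580109-69580408, plus strand): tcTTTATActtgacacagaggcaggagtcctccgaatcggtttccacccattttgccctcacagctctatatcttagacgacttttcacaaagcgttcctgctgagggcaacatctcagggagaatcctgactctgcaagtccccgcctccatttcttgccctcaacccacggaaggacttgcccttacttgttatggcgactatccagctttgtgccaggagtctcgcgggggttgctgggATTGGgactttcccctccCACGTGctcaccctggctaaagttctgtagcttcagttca
Brca1 (chr11:101551906-101552205, minus strand): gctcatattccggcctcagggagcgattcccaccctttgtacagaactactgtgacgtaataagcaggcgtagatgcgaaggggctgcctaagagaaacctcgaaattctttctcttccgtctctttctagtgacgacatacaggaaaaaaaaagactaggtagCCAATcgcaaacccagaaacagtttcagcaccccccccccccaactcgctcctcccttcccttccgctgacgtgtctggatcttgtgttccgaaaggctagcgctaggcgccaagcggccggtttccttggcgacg
Mrpl46 (chr7:78783040-78783339, minus strand): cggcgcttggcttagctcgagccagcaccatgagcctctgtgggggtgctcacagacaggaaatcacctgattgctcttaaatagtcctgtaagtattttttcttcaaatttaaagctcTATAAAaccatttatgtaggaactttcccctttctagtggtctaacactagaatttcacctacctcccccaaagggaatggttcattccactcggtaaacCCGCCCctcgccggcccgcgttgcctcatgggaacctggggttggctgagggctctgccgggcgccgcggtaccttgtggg
H2ac15 (chr13:21753863-21754162, minus strand): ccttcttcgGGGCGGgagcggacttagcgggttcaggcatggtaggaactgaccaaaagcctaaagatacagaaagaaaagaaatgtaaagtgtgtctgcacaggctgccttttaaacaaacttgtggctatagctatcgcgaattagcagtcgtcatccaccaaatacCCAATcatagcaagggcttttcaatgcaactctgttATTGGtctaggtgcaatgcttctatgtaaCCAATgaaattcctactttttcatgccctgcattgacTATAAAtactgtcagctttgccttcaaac
Gfer (chr17:24696107-24696406, minus strand): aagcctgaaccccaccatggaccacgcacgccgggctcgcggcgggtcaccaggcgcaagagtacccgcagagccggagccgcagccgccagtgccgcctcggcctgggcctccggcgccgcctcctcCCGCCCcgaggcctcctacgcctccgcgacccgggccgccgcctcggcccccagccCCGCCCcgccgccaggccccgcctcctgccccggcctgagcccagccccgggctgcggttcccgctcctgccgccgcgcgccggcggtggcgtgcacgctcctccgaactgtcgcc
Stk16 (chr1:75210579-75210878, plus strand): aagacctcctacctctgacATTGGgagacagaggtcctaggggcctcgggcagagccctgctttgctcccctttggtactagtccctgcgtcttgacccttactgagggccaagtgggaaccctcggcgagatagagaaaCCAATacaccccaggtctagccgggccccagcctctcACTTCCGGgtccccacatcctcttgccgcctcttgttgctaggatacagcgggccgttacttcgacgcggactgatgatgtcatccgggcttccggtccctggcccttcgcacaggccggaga

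In these windows the start of the partner gene lay at position 207 for Trip13 beside Brd9, 244 for Pbrm1 beside Gnl3, 142 for Wrap53 beside Trp53 and 99 for Nbr1 beside Brca1. It lay at position 209 for Mrps11 beside Mrpl46, 87 for H2bc15 beside H2ac15, 173 for Noxo1 beside Gfer and 177 for Glb1l beside Stk16. Each window thus holds the starts of both genes. The Brd9 window was 72.0% G and C, and all 4 of its marked matches are Sp1-type GC boxes on the strand opposite Brd9. Gnl3 and Gfer had the highest GC content of the 8 windows, 80.3% each. H2ac15 had the lowest, 43.3%, with 3 CCAAT boxes between the starts of the histone pair.

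The region of Brd9 itself was among those chosen. It spanned chromosome 13, 73937144 to 73938413, and held the start of Brd9 and that of Trip13, a gene on the opposite strand for an ATPase of the spindle checkpoint and of meiosis, with 5 bp between their outermost starts. It had 217 control and 151 knockout summit reads, which gives a scaled ratio of 1.09 (0.877 to 1.34). The level was thus lower in the knockout before scaling and within counting error of the control after it. Where the floxed part of Brd9 lies is not stated in the labels, and the region therefore does not check the deletion.

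Marker genes of the sorted cells and of other cell types were looked up at gene ends. Over all 20661 autosomal coding genes, 48.8% had a shared region within 1 kb of an end. Of 14 stem and progenitor genes 9 had one, as did 8 of 12 erythroid genes (2 of the 12 were not matched), 4 of 8 granulocyte and monocyte and 3 of 4 megakaryocyte genes. Among other cell types the count was 0 of 6 B lymphoid, 0 of 6 T and NK and 0 of 5 endothelial genes. It was 3 of 7 hepatocyte, 2 of 5 macrophage (1 not matched) and 1 of 4 stromal genes. Control-only regions lay at 2 erythroid, 2 B lymphoid, 1 T and NK and 1 stromal gene. Knockout-only regions lay at 1 stem and progenitor and 1 megakaryocyte gene, and 1 endothelial gene had a separate region in each list. The other 4 hepatocyte genes, Alb, Afp, Ttr and Hnf4a, had no region in either list. The stem cell markers Cd34, Gata2 and Fli1 also had none. In a sorted bulk sample, fewer cells of a type and less signal per cell cannot be told apart.

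The label of a bidirectional promoter held for most regions that could be classed by strand, and was shown for 49.7% of all 1704. Of 1271 classed regions, 847 (66.6%) held the starts of genes on opposite strands that point away from each other, here called divergent starts. A region with divergent starts was classed even where a further gene had no strand. Another 357 (28.1%) held the start of one gene and the far end of its neighbour, 29 held starts on the same strand only and 38 held far ends only. In 433 regions (25.4% of all 1704) at least 1 gene had no strand in the table used and no divergent starts were seen. These were left unclassed, so the share of 66.6% leans towards divergent starts. The members are therefore called shared gene-end regions below, and bidirectional only where starts diverge.

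Summit reads differed by arrangement. Divergent regions had a median of 186 control and 119 knockout summit reads, and regions with a start and a far end had 117 and 72. Regions with far ends only had 54 and 38. Same-strand starts, with few regions, had 193 and 118. The order of divergent starts over start and far end over far ends only was the same in both libraries. Shared regions near the start of a single gene had 108 and 67, and those near the far end of a single gene had 39.5 and 24.

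**Figure D1:**
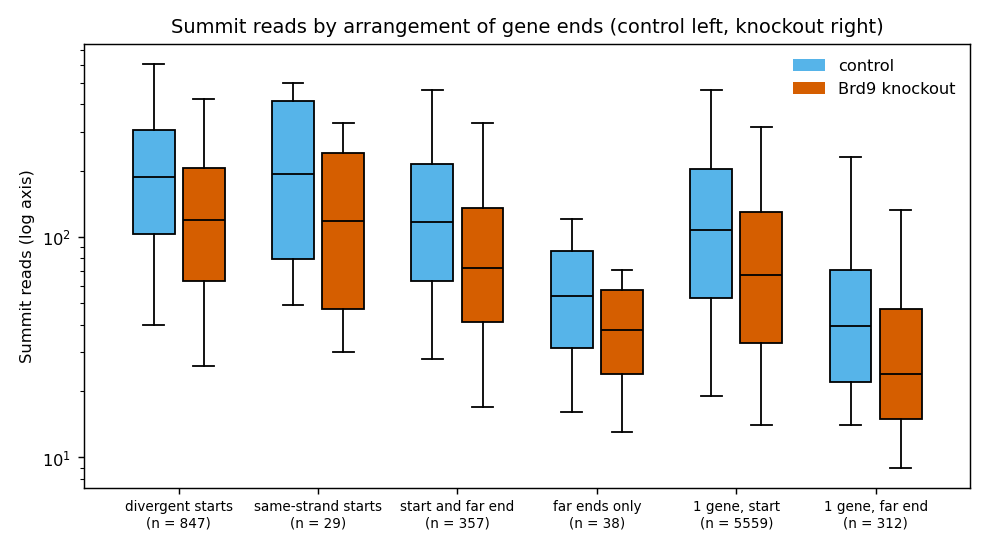
Summit reads per region (log axis) by the arrangement of gene ends, control in blue and Brd9 knockout in orange, with shared regions near 1 gene beside them. Boxes span the middle quartiles with the median as a line and whiskers run from the 5th to the 95th percentile over regions. Medians of 186 and 119 at divergent starts stand over 54 and 38 at far ends only.

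All 1704 regions together had a median of 153 summit reads in the control, with middle quartiles of 81 to 271 and a range of 9 to 1462. In the knockout the median was 96, with quartiles of 49 to 175.2 and a range of 8 to 1103. Shared regions near 1 coding gene had medians of 100 and 62, and those near no coding gene end 36 and 22. Regions at neighbouring genes were also wider, with a median of 1090 bp against 1003 bp near 1 gene and 898 bp near none. Most consisted of a single peak in each library, and 21 held more than 1 peak in either.

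Some regions at neighbouring genes were called in 1 library only and are no part of the 1704. Of 1808 merged regions near 2 or more coding genes, 65 were control-only and 39 knockout-only, and nothing is read from these numbers because presence in both lists chose the regions. These had a median of 19 summit reads in the control-only and 13 in the knockout-only regions. The strongest control-only region, at Hrc and Ppfia3, had 85 reads, followed by Ftl1 and Gys1, genes of ferritin light chain and glycogen synthase, with 65. The strongest knockout-only regions lay at Dvl2 and Phf23 with 50 reads and at Ndufb10 and Rps2 with 45.

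Where the second gene end lay over 900 and up to 1000 bp away, just inside, 61 regions had medians of 113 and 58 summit reads. Just outside, over 1000 and up to 1100 bp away, 60 shared regions had 161 and 85.5, more than the regions just inside.

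Paired starts lay close together. The outermost starts of divergent genes were a median of 40 bp apart, with middle quartiles of −143.5 to 145.5 bp, where a value below 0 means that the genes overlap at their starts. Such overlap was present in 307 of 847 divergent regions, and 268 had a gap of 0 to 100 bp. The widest gap was 1857 bp, between Dtymk, a thymidylate kinase gene, and Ing5, a gene for a reader of histone methylation. The deepest overlap, a gap of −3675 bp, was between Eno3, a muscle enolase gene, and Pfn1, the gene of the actin-binding protein profilin.

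Gaps of intermediate length had the highest summits. Medians in control and knockout were 164 and 113 summit reads where genes overlapped, and 156.5 and 99 at gaps of 0 to 100 bp. They were 250 and 163.5 in the 168 regions with gaps over 100 and up to 300 bp, and 231 and 149 in the 84 with over 300 and up to 1000 bp. Only 20 regions had longer gaps, with 146.5 and 83. The rise from short gaps to gaps over 100 and up to 300 bp thus appeared in both libraries, and the quartiles of neighbouring classes overlap.

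**Figure D2:**
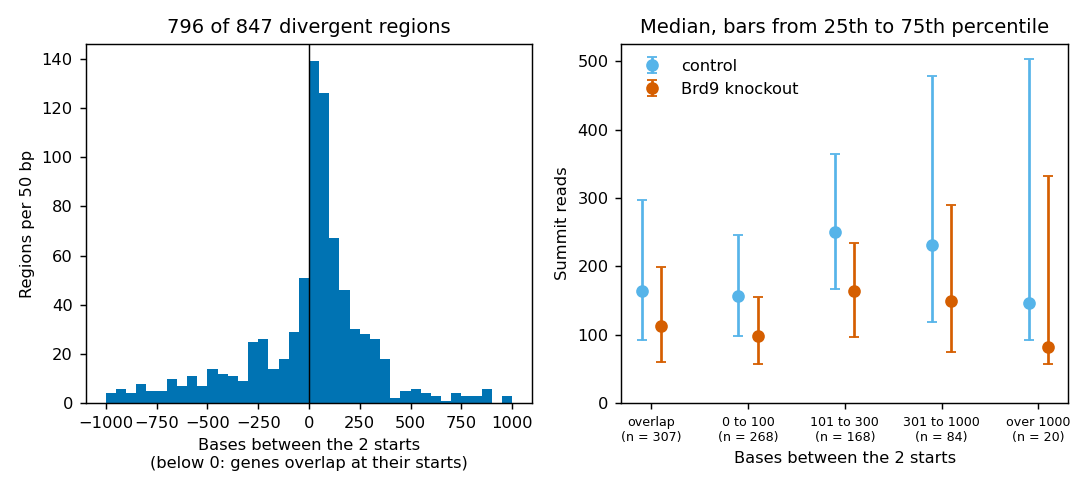
Left, number of divergent regions by the bases between the outermost starts of the paired genes, for gaps of up to 1000 bp in either direction. Right, median summit reads in control (blue) and Brd9 knockout (orange) by gap, with bars over the middle quartiles of regions: medians are 250 and 163.5 at gaps over 100 and up to 300 bp against 156.5 and 99 at 0 to 100 bp.

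Peak summits lay close to the paired starts, though most fell outside the stretch between them. The median distance from the summit to the midpoint between the divergent starts was 102 bp in the control and 105.5 bp in the knockout. Between the starts or within 200 bp of the nearer start lay 88.4% of control and 87.0% of knockout summits. The summit fell on or between the starts in 335 control regions (39.6%) and 340 knockout regions (40.1%). Across all 1704 regions the summits of the libraries lay a median of 35 bp apart, and 80.2% were within 100 bp of each other. In shared regions near 1 gene the median was 41 bp.

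Summit reads of the libraries stayed close to relative depth across the chosen regions. The median log2 scaled ratio was −0.0011, with 849 regions above 0 and 855 below, against −0.0033 over all 18023 shared regions and 0.0169 near 1 gene. A scaled ratio of at least 1.5 was reached by 55 regions (3.23%), where 9.11% of all shared regions did so. A ratio of 1/1.5 or less was seen in 69 (4.05%), against 9.49% of all shared regions. The counting interval lay wholly above 1 in 182 regions (10.7%), against 7.47% of all shared regions, and wholly below 1 in 148 (8.69%), against 8.52%. At a fold of 2, 6 regions were higher and 8 lower in the knockout. The rule required a peak in both lists, so nothing is read from these shares. The SD of the log2 ratio over the regions was 0.319, and counting error of reads alone would give 0.237.

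**Figure D3:**
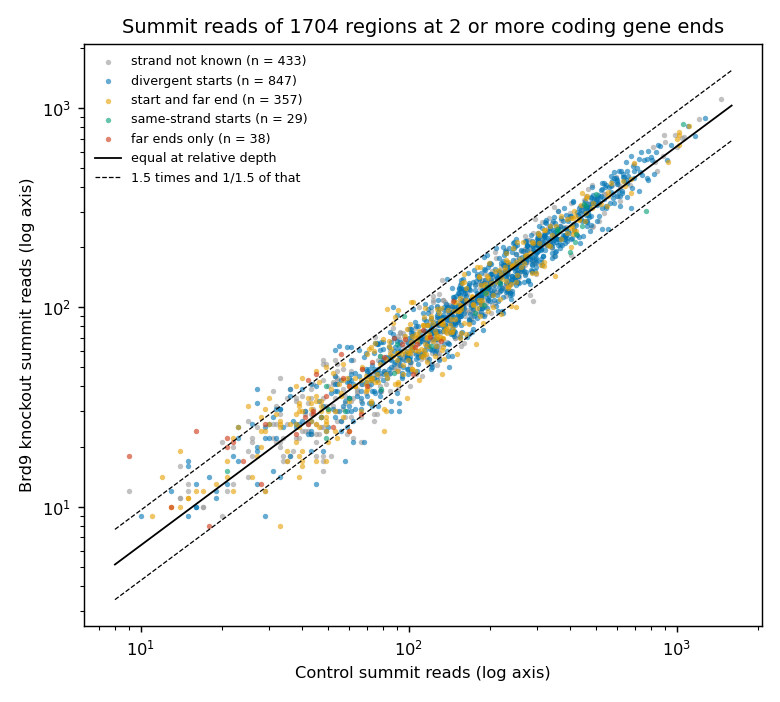
Summit reads of each of the 1704 regions in the control (horizontal, log axis) and the Brd9 knockout (vertical, log axis), coloured by arrangement. The solid line marks equal levels at the relative depth of 0.640 and the dashed lines 1.5 times and 1/1.5 of it; 55 regions lie on or above the upper and 69 on or below the lower line.

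Much of the spread moved with the number of reads. In the 71 regions with fewer than 50 reads over both libraries the SD of the log2 ratio was 0.512, where counting error alone would give 0.518. In the 501 regions with 400 or more reads it was 0.203, over the 0.119 from counting error. Medians also differed by level: 0.21 in the lowest class, 0.0057 from 50 to under 100 reads, −0.087 from 100 to under 200, −0.032 from 200 to under 400 and 0.060 in the highest class. In that highest class 303 regions had a log2 ratio above 0 and 198 below. Shared regions near 1 gene showed the same sequence of signs except from 50 to under 100 reads, with medians of 0.20, −0.0090, −0.042, −0.015 and 0.066. Medians were thus highest in the lowest class and not ordered by level, in both kinds of region, and the part of the scaling or of the libraries' depth in it was not tested.

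Ratios by arrangement were centred near 0 in the large classes. The median log2 scaled ratio was −0.0008 at divergent starts and 0.0057 at regions with a start and a far end. Far ends only had 0.11, with 25 regions above 0 and 13 below. These 38 regions had few reads, a median of 54 and 38, and the highest ratio of all belonged to them. That region, chosen after its value was seen, lay at Phkg1 and Sumf2, with 9 control and 18 knockout reads and a scaled ratio of 3.12 (1.33 to 7.89). The interval is wide at such counts.

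Of 18 pairs listed as bidirectional, 16 were found as regions near both genes. The exceptions were Acat2 with Tcp1, and Tbp with Psmb1, whose genes had shared and control-only regions but none near both. The start of Tcp1 diverged from that of Mrpl18 instead, so the listing of Acat2 with Tcp1 as bidirectional is not borne out here. Of the 16 pairs found, 15 are described here. Their levels ran from 53 control reads at Afmid and Tk1 to 693 at Paics and Ppat. Counting intervals of the scaled ratio included 1 in 12 of the 15 and did not at Gart, Trp53 and Brca1.

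Pairs with purine synthesis genes had the most control summit reads of the pairs described. Paics and Ppat, both genes of enzymes of purine synthesis, had 693 control and 479 knockout reads (1.08, 0.959 to 1.21). Gart, a further gene of purine synthesis, and Son, a splicing cofactor gene, had 672 and 315 (0.732, 0.638 to 0.838). The interval of Paics with Ppat included 1, and that of Gart with Son lay below it. In the knockout, Gart with Son had fewer reads than Mcm4 with Prkdc, Hspd1 with Hspe1 and Brca1 with Nbr1. At the low end, Tk1, the thymidine kinase gene, and Afmid had 53 and 38 (1.12, 0.718 to 1.73).

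Genes of genome maintenance covered a similar range. Trp53, the tumour suppressor gene, and Wrap53, a gene for a protein of telomerase assembly, had 223 control and 96 knockout reads, a scaled ratio of 0.672 (0.524 to 0.858), in a region of 2618 bp that held 1 control and 2 knockout peaks. Brca1, a gene of homologous recombination, and Nbr1, an autophagy receptor gene, had 454 and 339 (1.17, 1.01 to 1.35). Atm, a DNA damage kinase gene, and Npat, whose protein drives histone gene transcription, had 405 and 221 (0.852, 0.720 to 1.01). The interval lay below 1 at Trp53, just above 1 at Brca1 and around 1 at Atm. Mcm4, a gene of the replicative helicase, and Prkdc, a gene of DNA end joining, had 573 and 409 (1.11, 0.980 to 1.27). Cdc45, another helicase gene, and Ufd1 had 303 and 229 (1.18, 0.990 to 1.41).

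Mitochondrial and protein quality pairs lay near relative depth. Hspd1 and Hspe1, the mitochondrial chaperonin and its co-chaperonin, had 624 control and 372 knockout reads (0.931, 0.817 to 1.06). Ranbp1 and Trmt2a had 459 and 311 (1.06, 0.913 to 1.23). Mrps12 and Sars2, both genes of mitochondrial translation, had 188 and 99 (0.822, 0.638 to 1.05). Each of these intervals included 1. Psmb9 and Tap1, genes of antigen processing, had 170 and 109 (1.001, 0.780 to 1.28). Psmd13, a proteasome gene, and Sirt3, a mitochondrial deacetylase gene, had 114 and 72 (0.986, 0.724 to 1.34). The histidyl-tRNA synthetase pair Hars and Hars2 had 173 and 97 (0.876, 0.676 to 1.13), and Surf1, a gene of cytochrome oxidase assembly, with Surf2 had 77 and 49 (0.994, 0.680 to 1.44).

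**Figure D4:**
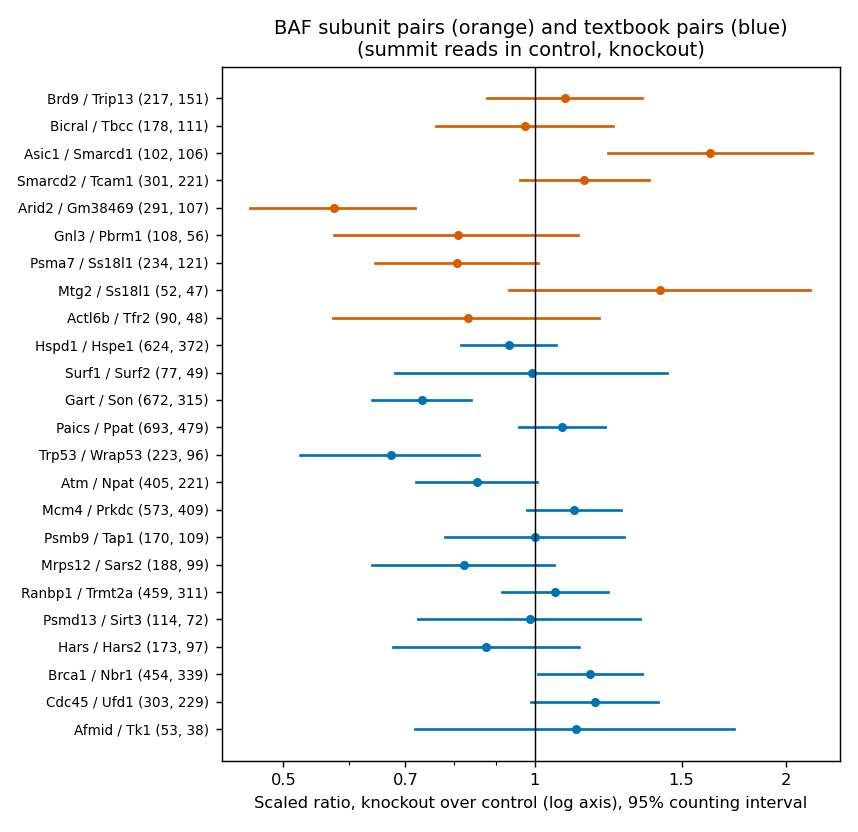
Scaled ratio of knockout over control (log axis) with its 95% counting interval for regions at BAF subunit genes (orange) and the 15 textbook bidirectional pairs described (blue), with control and knockout summit reads in brackets. Arid2 with Gm38469 lies lowest at 0.574 and Asic1 with Smarcd1 highest at 1.62.

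Genes of BAF complexes, the family of remodellers to which BRD9 belongs, were part of 9 such regions in all. Of 31 listed subunit genes 28 had a shared region at an end, where 48.8% of all coding genes did. At regions near a second gene were 8 of these 28, against 32.8% of all genes with a shared region. Arid2, a subunit gene of the PBAF form, and the predicted gene Gm38469 had 291 control and 107 knockout reads, a scaled ratio of 0.574 (0.456 to 0.719). Pbrm1, another PBAF subunit gene, and Gnl3, the nucleostemin gene, start 6 bp apart and had 108 and 56 (0.810, 0.576 to 1.13). The first interval lay below 1 and the second included it. Smarcd1, a subunit gene common to several BAF forms, lay beside the ion channel gene Asic1 with 102 and 106 reads (1.62, 1.23 to 2.15).

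The remaining BAF regions had intervals that included 1. Smarcd2 with Tcam1 had 221 knockout reads (1.15, 0.960 to 1.37), with the control count given in the plot of scaled ratios. Bicral, whose protein is a subunit of the BRD9-containing form, had 178 and 111 with Tbcc (0.974, 0.761 to 1.24). Ss18l1 had a region at each end, 234 and 121 reads beside the proteasome gene Psma7 (0.808, 0.643 to 1.01) and 52 and 47 beside Mtg2 (1.41, 0.931 to 2.14). The region at its start, beside Psma7, was thus the taller. Actl6b, a neuronal subunit gene, lay beside Tfr2, an iron sensor gene of erythroid cells and hepatocytes, with 90 and 48 (0.833, 0.574 to 1.20).

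Of the blood cell lists, 1 of 14 stem and progenitor, 2 of 12 erythroid and 1 of 8 granulocyte and monocyte genes lay at a shared gene-end region, beside 16.0% of all coding genes. Lyl1, a transcription factor gene of blood stem cells, met Nfix at the far ends of both genes, with 97 control and 69 knockout reads (1.11, 0.804 to 1.53). Nfe2, an erythroid and megakaryocyte factor gene, lay beside Hnrnpa1 with 54 and 27 (0.781, 0.473 to 1.26), and Mpo, the myeloperoxidase gene, beside Lpo with 44 and 29 (1.03, 0.621 to 1.68). All these intervals included 1. The alpha-globin gene Hba-a1 and Hbq1b had 30 and 35 reads (1.82, 1.09 to 3.07), in a cluster of near-identical globin copies where read placement is uncertain. Markers of other cell types shared a region with a broadly used gene in 3 cases: Apoa2 with Tomm40l (281 and 217 reads), Foxa3 with Sympk (154 and 118) and Axl with Hnrnpul1 (486 and 332). Reads there cannot be told apart between the marker and its neighbour.

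The region with the most reads lay at Khsrp and Slc25a41. Khsrp, an RNA-binding protein gene, and Slc25a41, a mitochondrial carrier gene, had 1462 control and 1103 knockout reads (1.18, 1.09 to 1.28). Hdgfl2 and Ubxn6, with starts 265 bp apart, had 1269 and 888 (1.09, 1.002 to 1.19), and Izumo4 and Mob3a had 1213 and 874 (1.13, 1.03 to 1.23). Next came Brpf1, a scaffold gene of a histone acetyltransferase, with Cpne9 (1106 and 813 reads) and Mpc2, a gene of the mitochondrial pyruvate carrier, with Dcaf6 (1103 and 810). Of the 15 regions with the most reads, Fam72a with Srgap2 (0.962) and Mtrf1l with Rgs17 (0.999) had scaled ratios under 1, and the other 13 lay over it.

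At the lowest ratios, regions were modest in height. Among regions with at least 50 reads over both libraries, Rbak and Spdye4b had the lowest scaled ratio, 45 control and 13 knockout reads (0.451, 0.223 to 0.851). Gfer, a gene of a sulfhydryl oxidase, and Noxo1, a NADPH oxidase organiser gene, had 58 and 17 (0.458, 0.250 to 0.797). Nmb and Wdr73 had 81 and 24 (0.463, 0.280 to 0.737), and Chtf8, Derpc and Utp4 had 68 and 21 (0.482, 0.281 to 0.797). The region of Erfe, the gene of the erythroid hormone erythroferrone, and Ilkap had 48 and 15 (0.488, 0.254 to 0.887). Cul7, a ubiquitin ligase scaffold gene, and Mrpl2 had the most reads among the 10 lowest, 133 and 46 (0.540, 0.378 to 0.760). The other 4 of the 10 lay at Crip2 and Gm30599, 4930524J08Rik and Hnrnpd, Pafah1b2 and Sik3, and Gtf2h3 and Tctn2, with ratios of 0.497 to 0.542.

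At the highest ratios, Stk16, a kinase gene, and Glb1l had 27 control and 39 knockout reads, a log2 scaled ratio of 1.17 (ratio interval 1.35 to 3.83). Hps4, a gene of lysosome-related organelle formation, and Srrd had 33 and 44 (2.08, 1.30 to 3.38), and the cell cycle factor gene E2f4 with Elmo3 had 31 and 38 (1.91, 1.16 to 3.18). In each the unscaled knockout reads exceeded those of the deeper control library. Gcn1, a gene of the amino acid starvation response, and Rplp0, a gene of the ribosomal stalk, had 83 and 98 (1.84, 1.36 to 2.50), and Fhod1 and Slc9a5 had 87 and 100 (1.80, 1.33 to 2.42). All of the 10 lowest and 10 highest log2 ratios came closer to 0 when the deposited folds were divided instead. Gcn1 with Rplp0 (0.32, from 0.88), Kcnab2 with Nphp4 (0.14, from 0.86) and Dhx57 with Morn2 (0.23, from 0.85) left their counting intervals. 6430571L13Rik with Hemk1 went from 0.93 to 0.28 and stayed within its interval.

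Wide regions spanned the starts of both genes and more. Nek8 and Tlcd1, with starts 20 bp apart, had the widest region, 3343 bp, with 460 control and 255 knockout reads (0.866, 0.740 to 1.01). Ddit3, a stress response factor gene, and Mbd6 had 2975 bp with 436 and 210 (0.752, 0.635 to 0.889), and Mesd and Tlnrd1 had 2986 bp with 284 and 130 (0.715, 0.576 to 0.883). The latter pair of intervals lay below 1. The most genes, 25, met at a region of the gamma-protocadherin cluster and Diaph1 with 14 and 11 reads, where the nested gene models share one end.

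The share of genes at shared gene-end regions was computed for each of 19 gene families, as a description. Families were matched by gene name alone, so a family can hold genes that share only the name pattern, such as Psmc3ip among the proteasome genes. Of 20661 autosomal coding genes 3308 (16.0%) were at such a region. The share was 68.7% of core and linker histone genes (46 of 67) and 53.2% of Nduf genes, called complex I here (25 of 47). It was 48.7% of mitochondrial ribosomal genes (38 of 78) and 47.1% of tRNA synthetase genes (16 of 34). Exosome genes, for RNA decay, had 7 of 10 and DNA repair genes 20 of 44. Cytosolic ribosomal genes had 28 of 87 and proteasome genes 11 of 39. In contrast, zinc finger genes of the Zfp kind had 47 of 388, solute carrier genes 49 of 362, and olfactory receptor genes 0 of 1104, which allows a share of up to 0.334%. Among genes with any shared region, 32.8% were at a region near a second gene. On that base the share was 74.2% of histone, 55.6% of complex I, 51.4% of mitochondrial ribosomal and 48.5% of tRNA synthetase genes, but 36.8% of cytosolic ribosomal, 30.6% of proteasome and 28.0% of solute carrier genes, and a single olfactory receptor gene had any shared region. The families were not tested against each other, and genes of a family are not independent where they sit in clusters.

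**Figure D5:**
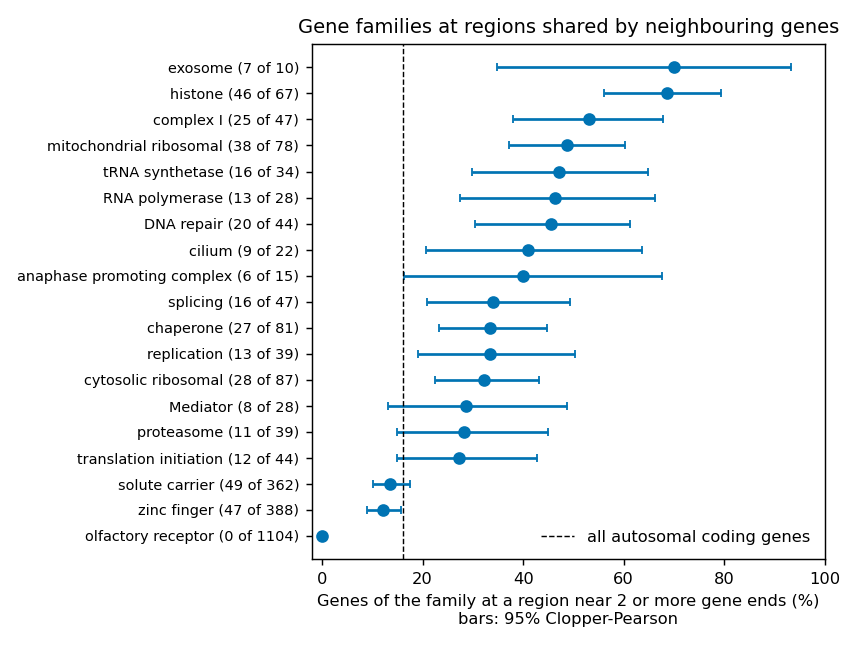
Share of the autosomal protein-coding genes of each family that lie at one of the 1704 regions (horizontal, percent), with 95% Clopper-Pearson intervals as bars and the share of all coding genes, 16.0%, as a dashed line. Exosome and histone genes lie highest at 70.0% and 68.7%, and olfactory receptor genes at 0.

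The histone genes stood at 23 regions, 22 of which touched at least 2 histone genes. Their median was 474 control and 246 knockout summit reads, over the 153 and 96 of all chosen regions. The median log2 scaled ratio was −0.15, with 3 regions above 0 and 20 below, and counting intervals lay wholly below 1 in 8 and wholly above 1 in none, beside 8.69% and 10.7% of all 1704 regions. The 17 shared regions near a single histone gene had a median of −0.20, with 1 above 0 and 16 below. H3c1 and H4c1 had the most reads, 890 and 571 (1.002, 0.900 to 1.11). H2ac15 and H2bc15 had 771 and 445 (0.901, 0.800 to 1.01), and H2ac10 and H3c8 had 765 and 304 (0.621, 0.542 to 0.710). Histone genes are near-identical copies in clusters, and the sources used here do not say how reads that match several copies were treated.

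Mitochondrial families were spread on both sides of relative depth. The 39 regions of mitochondrial ribosomal genes had a median log2 scaled ratio of 0.0088, with 21 above 0 and 18 below, and the 42 near a single such gene had 0.059, with 23 above and 19 below. Mrpl18 and the chaperonin gene Tcp1 had the most reads of them, 822 in the control and 466 in the knockout (0.885, 0.788 to 0.993). Mrps18b and Ppp1r10 had 584 and 442 (1.18, 1.04 to 1.34), and Mrpl46 with Mrps11, the pair in which both genes encode mitochondrial ribosomal proteins, had 80 and 53 (1.03, 0.717 to 1.48). Members of the family thus lay above and below 1. Genes with an Nduf symbol, not all of which need belong to complex I, had a median of −0.085 over 25 regions, with 8 above 0 and 17 below. The 22 shared regions near a single Nduf gene had 0.017, with 13 above and 9 below. Ndufa4 with Phf14 had the highest ratio of the 25, 251 and 219 reads (1.36, 1.13 to 1.64), and Kbtbd4 with Ndufs3 the lowest, 86 and 34 (0.617, 0.402 to 0.928).

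The tRNA synthetase genes, which charge tRNAs with amino acids, had a median log2 scaled ratio of −0.19 over 17 regions, with 4 above 0 and 13 below. The 21 shared regions near a single tRNA synthetase gene had −0.035, with 10 above and 11 below. Counting intervals lay below 1 in 3 of the 17 regions and above 1 in none, beside 8.69% and 10.7% of all 1704 regions. Yars with S100pbp had 349 control and 231 knockout reads (1.03, 0.872 to 1.22), and Fars2 with Lyrm4 had 353 and 211 (0.934, 0.783 to 1.11). Both intervals included 1, whereas that of Cars2 with Naxd (104 and 46 reads, 0.691, 0.477 to 0.986) did not. DNA repair genes had a median of −0.044 over 20 regions, with 10 above 0 and 10 below, and the 22 near a single such gene had −0.068, with 9 above and 13 below. Fanci with Rlbp1 had the lowest ratio among the 20, 139 and 60 reads (0.674, 0.490 to 0.919). The 7 exosome regions had 3 above 0 and 4 below, where the 4 near a single exosome gene were all below. The 7 ran from Exosc1 with Zdhhc16 (238 and 115 reads, 0.755) to Exosc8 with Alg5 (246 and 212 reads, 1.35).

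Most autosomal divergent pairs of known strand had a region called in both libraries. Among genes with known strand, 878 coding pairs start on opposite strands within 1 kb of each other, and 801 (91.2%) had a shared region. Of all autosomal coding genes 48.8% had one at an end, a share per gene and not per pair. No region in either list lay at 66, while 6 had a control-only and 5 a knockout-only region. Pairs without a region, named after their values were seen, included genes of other tissues: the basement membrane collagens Col4a1 and Col4a2, the thyroid hormone synthesis genes Duox2 and Duoxa2, the neuronal receptor genes Gabra4 and Gabrb1, and the neural factor genes Zic1 and Zic4. Stat5b and Stat5a, signalling genes of blood cells, were among them as well. So were pairs with ribosomal protein genes, Rps2 with Rnf151 and the mitochondrial Mrps2 with 1700007K13Rik. The pairs without a region were not sorted by where their genes are used. Absence from both lists means no called peak, not closed chromatin.

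Promoter sequence was compared among genes with a strand. The 1684 divergent promoters had a median GC content of 62.3% and a CpG ratio, observed over expected, of 0.840, and 85.3% exceeded a ratio of 0.6. Shared single-gene promoters had 61.7% and 0.789, with 78.5% over 0.6. All 16456 autosomal coding promoters had 56.7% and 0.597, with 49.8% over 0.6. Promoters without a region in either list had 49.7% and 0.242. Starts beside a far end lay between these, with 60.0% and 0.735. The 300-base windows of paired genes overlap, and taking only the plus-strand gene of each of 842 pairs gave 62.3% and 0.837.

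The 10 motifs were searched as exact letters on both strands: GCGCATGCG for NRF1, CCGGAAGT for ETS factors, CCAAT for the box of that name, GGGCGG for Sp1, TATAAA for the TATA box, TGACGTCA for CRE, AAGATGGCG for YY1, CTACAATTC for ZNF143, CACGTG for the E-box and AGATAA for GATA factors. No motif contains another. ETS letters were in 13.8% of divergent promoters, 8.49% of shared single-gene promoters and 5.44% of all promoters. With the plus-strand gene of each pair only, the first value was 14.8%. YY1 letters were in 5.17%, 3.23% and 1.92%, and NRF1 letters in 4.63%, 4.44% and 2.46%. Sp1 letters were in 65.7%, 70.0% and 47.3%, and TATA letters in 4.99%, 6.57% and 13.5%. CCAAT was similar in all, at 40.8%, 40.1% and 39.1%. CRE was in 66 of 1684 divergent and 395 of all 16456 promoters, ZNF143 in 1.25%, 0.885% and 0.547%, the E-box in 11.2%, 11.2% and 7.97%, and GATA in 5.64%, 5.94% and 9.85%. A match describes letters and not a bound site.

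Levels of divergent regions differed with some motifs. Regions with a CCAAT box in either promoter (450 of 847) had medians of 218.5 control and 140 knockout summit reads, and those without had 153 and 100. ETS went the other way, with 150 and 98 in 157 regions with it and 195.5 and 123 in those without. For Sp1 the medians were 190 and 123 with and 156.5 and 100 without. Median log2 scaled ratios with a motif ran from −0.067 for YY1 (64 regions) to 0.13 for ZNF143 (15 regions). Among the sequences shown, Brd9 has Sp1 letters only and Stk16 holds the single ETS match.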

How the data were processed

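ATAC-seq peak lists of 1 control and 1 knockout library were analysed, 25330 and 22348 peaks with median widths of 794 and 731 bp. Trimmomatic 0.39, Bowtie2 2.4.4, Picard 2.26.2, deepTools 3.5.1, MACS2 2.2.7.1 and mm10 are named in the submitters' processing notes, without roles or settings. Read shifting, duplicate and multi-mapping handling are not given in the sources used here. Peaks were called per sample. In the deposited files the fold divides the summit pileup by local background after 1 is added to each. The −log10 p-value deposited per peak tests that pileup, the −log10 q-value is its adjusted form, and the deposited score repeats the latter and was not used. The deposited summit offset gave summit positions.

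Summit reads were the integer pileup solving for fold and −log10 p together, both as deposited. A whole number was found for 100% of peaks, with a relative misfit of at most 7.3e-06, and the step was tested on simulated data. Depth was taken from the lowest background, 1.52 reads in the control at 4000 peaks and 0.971 in the knockout at 3013. Total reads were not analysed here. Without molecular identifiers reads may be copies of one molecule, so intervals cover counting error only. Intervals are exact Poisson for reads, conditional binomial for ratios and Clopper-Pearson for shares.

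Gene spans came from a RefSeq table of GRCm38.p6. Strand came from the RefSeq promoter table, which matched 16456 of 20661 autosomal coding genes (79.7%). Regions were named by fixed rules: the 15 with most reads, the 10 lowest and 10 highest ratios among those with at least 50 reads, listed pairs and markers, and the 5 widest and those with most genes; family examples were chosen after their values were seen. Some items that these rules name are not reported here. The regions and lists were chosen with earlier results of these data known. Analyses used SciPy 1.17.1 and NumPy 2.4.6 under Python 3.11.15, with pandas 2.3.3 for tables and matplotlib 3.10.9 for figures.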

Additional observations from a re-analysis of the deposited data

How the results depend on the processing

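The number of regions was 1445 with gene ends within 500 bp, 2469 within 2500 bp, 1669 with peaks of −log10 q of at least 5, 1699 with a larger overlap (0.5 of the shorter peak), 1571 without predicted genes and 847 with divergent starts only. Median control summit reads were 162 at 500 bp and 134 at 2500 bp. Knockout medians, divided here by the relative depth of 0.640, were 157.7 at 500 bp and 126.5 at 2500 bp, against 149.9 as reported. The median width was 1046 bp for the strongest control peak and 954.5 bp for the strongest knockout peak. The median log2 scaled ratio was 0.019 from the ratio of deposited folds, 0.0021 with depth from the median of all shared regions and 0.0040 with summed summits. No region-level value named for an extreme ratio changed sign, but only the deposited folds could have changed one. Each of those regions held 1 peak per library, so summed summits left its value as it was. The other depth ratio, 0.639, was nearly the same. The share of regions past the fold was 0.822% at a fold of 2 in place of 7.28% at 1.5. With deposited folds all 20 extreme log2 ratios came closer to 0, and 3 of them moved beyond their counting interval. No paired analysis was possible because each genotype had 1 library and the libraries carry different replicate numbers. Depth limits the regions with few reads: their intervals are wide, and a difference within them was not detectable.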
